A study of Mus musculus with 4 samples.

Results

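Nuclear receptors are transcription factors, many of which a small lipid-soluble ligand switches between repressing and activating genes. The mouse genes of this superfamily were taken from the deposited table by symbol: every NR-numbered gene and the RAR, RXR, ROR, thyroid hormone, PPAR, vitamin D, HNF4, estrogen receptor beta and estrogen-related receptor genes. Of 20555 genes in the table, 40 rows matched. Of these, 38 were receptor genes, and the other two were Nr2c2ap, which encodes a partner protein of the receptor Nr2c2, and Nr6a1os, an RNA from the strand opposite Nr6a1. The symbol rule did not take in the steroid receptor genes Esr1 and Pgr, whose values are given beside the corticosteroid receptors. No row matched Hnf4a or Hnf4g, so these genes were not analysed here.

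RNA was sequenced from bulk mammary tumours in 2 groups of 2 libraries. MYC-PyMT tumours came from mice that carried PyMT, the middle T oncoprotein of polyoma virus, together with S100a8-cre and Rosa26-LSL-MYC, a MYC transgene kept silent until Cre recombinase acts. S100a8 is best known as a gene of neutrophils and other myeloid cells. Control-PyMT tumours are labelled with PyMT alone, so that PyMT is shared by both groups. The sources used here give no promoter of PyMT, strain, age or number of mice. They do not tie each library to a mouse of its own, so the p-values reflect only library-to-library spread, possibly technical.

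Libraries held 31783846 to 34190913 reads. Mouse Myc itself, at 3215 and 2815 scaled counts in MYC-PyMT libraries, against 1832 and 2819.9 in Control-PyMT libraries, overlapped between groups and did not pass the test (log2 change 0.40, SE 0.23, limma adjusted p = 0.172). Of 8 luminal epithelial markers, including the keratin genes Krt8 and Krt18, all were detected, with a summed level of 111728 and 114464 scaled counts in MYC-PyMT and 145043 and 139239 in Control-PyMT. Values are scaled counts, which are reads divided by 1 size factor per library, in the order replicate 1 and replicate 2. A log2 change is MYC-PyMT over Control-PyMT on log2(scaled count + 1), which understates changes of low genes. In bulk tissue, fewer cells of a type and less RNA per cell cannot be told apart.

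Receptors of the superfamily share a zinc-finger domain that reads DNA and a ligand-binding domain. Steroid receptors such as those for glucocorticoids and mineralocorticoids bind as pairs of the same protein, whereas retinoic acid, vitamin D, thyroid hormone, LXR and PPAR receptors bind with a retinoid X receptor (RXR) as partner. The ERR, ROR and REV-ERB proteins bind without RXR, the NR4A proteins Nr4a1 and Nr4a2 bind either alone or with it, and for several of these receptors no natural hormone is established. In the mammary gland, steroid receptors control ductal growth, and PPAR, LXR and ERR proteins control lipid and mitochondrial metabolism in many tissues.

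MYC-PyMT tumours had lower levels of 10 receptor genes and higher levels of 2. Esrrb, Rxrg, Nr1h4, Esrrg, Nr3c2, Rora, Rorb, Nr2c2, Nr3c1 and Rxra fell, and Nr1d1 and Rxrb rose. Of these 12, 8 differed by at least 2-fold on the log2 scale. All 38 receptor genes passed the level filter of at least 10 scaled counts in at least 2 libraries, 3 of them (Esrrb, Rxrg and Nr5a2) through the Control-PyMT libraries alone. A call needed an adjusted p under 0.05 by limma, with the Benjamini-Hochberg adjustment over all 16725 genes tested, and the 12 calls are 31.6% of the receptors, where 47.9% of all genes tested were called. Lower calls made up 26.3% of the receptors, against 24.6% of all genes, and higher calls 5.26%, against 23.3%. The median log2 change was -0.25 over the receptors and -0.02 over all genes tested. The groups did not overlap for 29 receptors (76.3%), near the 75.7% of all genes tested. Of these 29, 10 lay higher in MYC-PyMT and 19 lower, where 37.0% and 38.7% of all genes did. edgeR also called 2 receptors higher and 10 lower, and DESeq2 3 higher and 9 lower, against 47.4% and 43.6% of all genes called in either direction. The split was less uneven once each library's trend with exon length was removed. Esrra, Nr2f2 and Thrb were then called higher as well, and Nr2c2, Nr3c1, Rorb and Rxra lost the call. Exons of the receptors had a median of 4610.5 bases, against 3973.5 for all genes tested. Rora, Nr3c2, Rxrb and Esrrb were called in every alternative that gave them a value, and the other 8 lost the call in at least 1.

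**Figure D1:**
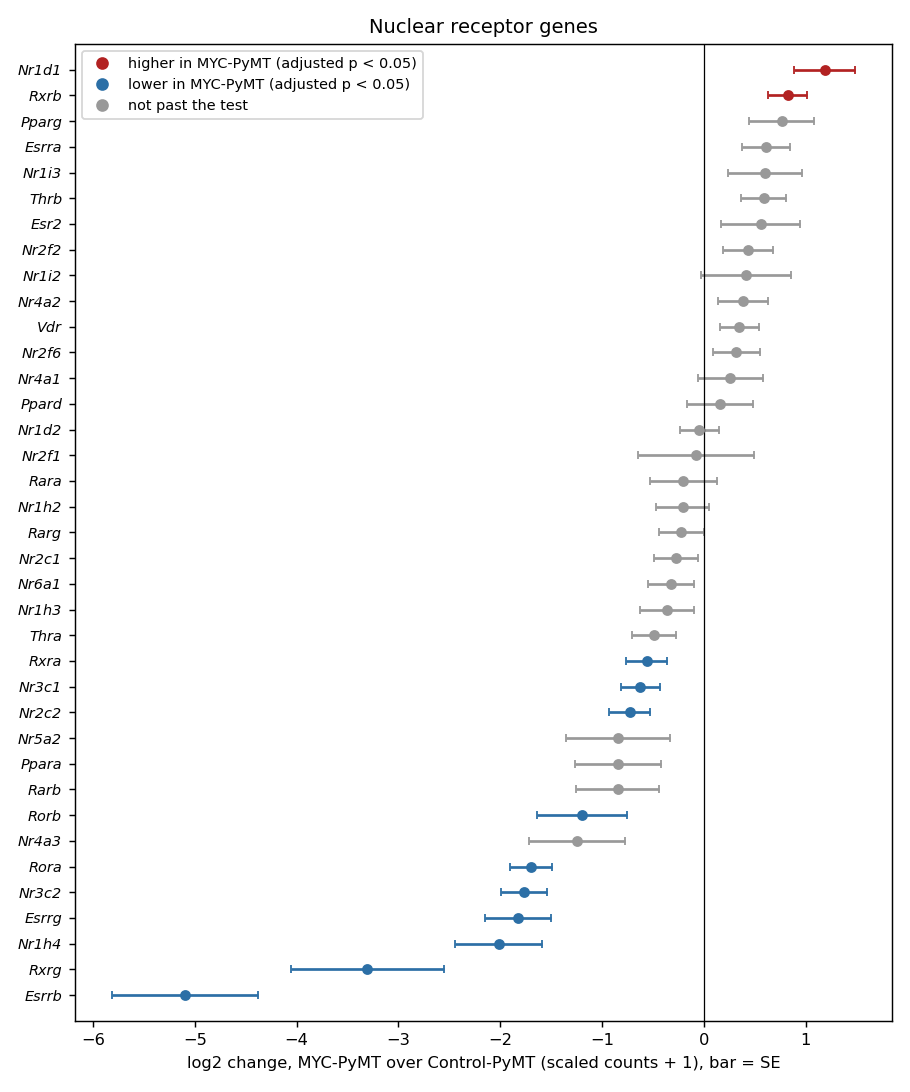
Each nuclear receptor gene reported here is drawn as a point at its log2 change, MYC-PyMT over Control-PyMT on scaled counts + 1, with a bar of 1 SE from the limma fit; colours mark genes past the test. Only Nr1d1 and Rxrb stand past the test on the right, and the falls reach -5.10 for Esrrb.

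**Figure D2:**
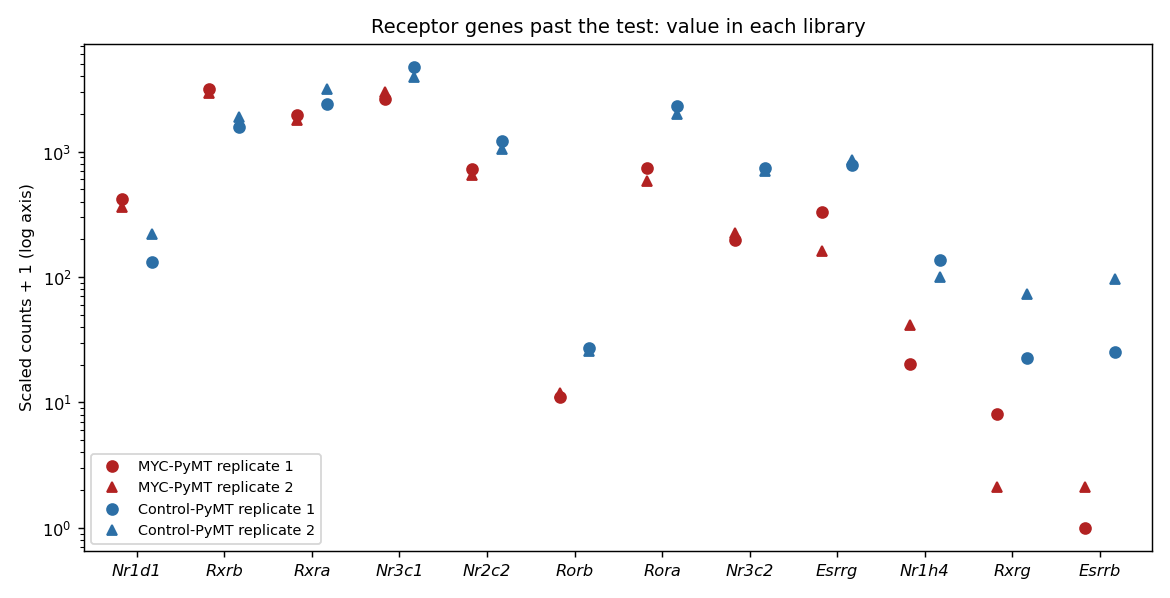
The scaled counts + 1 of the 12 receptor genes past the test are plotted for each library on a log axis, MYC-PyMT left of Control-PyMT, with circles for replicate 1 and triangles for replicate 2. The groups do not overlap for any of the 12, while the Control-PyMT libraries lie far apart for Rxrg and Esrrb.

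The RXR genes encode the common partners of many other receptors, and they moved in opposite directions. Rxrb (chromosome 17, 34031812 to 34038399, GRCm38) had 3148 and 2926 scaled counts in MYC-PyMT and 1557 and 1886 in Control-PyMT. Both MYC-PyMT libraries stood above both Control-PyMT libraries, and Rxrb rose by a log2 change of 0.82 (SE 0.19, limma adjusted p = 0.00567). Rxra had 1948 and 1782 scaled counts in MYC-PyMT, against 2401 and 3149 in Control-PyMT, and fell (log2 change -0.56, SE 0.20, limma adjusted p = 0.0418). Rxrg, the least abundant, had 7.04 and 1.10 scaled counts in MYC-PyMT, against 21.5 and 72.2 in Control-PyMT. It fell by 3.30 on the log2 scale (SE 0.75, limma adjusted p = 0.00526). The Control-PyMT libraries lay far apart.

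Per kilobase of exon, Rxrb stood at 792 and 737 scaled counts in MYC-PyMT and at 392 and 475 in Control-PyMT, and Rxra at 357 and 326 in MYC-PyMT and at 439 and 576 in Control-PyMT. Rxrb was thus 68.8% and 69.3% of the summed RXR level per kilobase in MYC-PyMT, against 46.6% and 43.9% in Control-PyMT. The summed level of the 3 genes, 1152 and 1063 per kilobase in MYC-PyMT and 841 and 1083 in Control-PyMT, overlapped between groups. With the longest transcript as length, Rxrb averaged 75.2% of the sum in MYC-PyMT and 52.9% in Control-PyMT, so the order of Rxra and Rxrb in Control-PyMT depends on the length used. The Rxra call ended in 6 alternatives, among them without Control-PyMT replicate 2 (log2 change -0.37, limma adjusted p = 0.141) and without the variance trend (0.109), and the Rxrg call ended without Control-PyMT replicate 2 (log2 change -2.45, limma adjusted p = 0.128).

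Promoter windows of the RXR genes are shown because these are the paralogs that moved apart. Each runs from 250 bases before to 50 after an annotated start (RefSeq, GRCm38.p6), and both Rxra windows are given because they differ in motifs. Capitals mark every match to the receptor half-site AGGTCA, or its reverse complement, and to the GC box GGGCGG, or its reverse complement.
Rxra, chr2:27676951-27677250, plus strand: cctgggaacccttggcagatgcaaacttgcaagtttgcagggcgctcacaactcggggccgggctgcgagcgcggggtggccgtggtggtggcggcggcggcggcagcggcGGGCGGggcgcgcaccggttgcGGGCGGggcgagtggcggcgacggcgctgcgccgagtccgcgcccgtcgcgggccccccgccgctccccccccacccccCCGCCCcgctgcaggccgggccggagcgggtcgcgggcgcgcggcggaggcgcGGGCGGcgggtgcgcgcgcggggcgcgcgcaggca
Rxra, chr2:27709042-27709341, plus strand: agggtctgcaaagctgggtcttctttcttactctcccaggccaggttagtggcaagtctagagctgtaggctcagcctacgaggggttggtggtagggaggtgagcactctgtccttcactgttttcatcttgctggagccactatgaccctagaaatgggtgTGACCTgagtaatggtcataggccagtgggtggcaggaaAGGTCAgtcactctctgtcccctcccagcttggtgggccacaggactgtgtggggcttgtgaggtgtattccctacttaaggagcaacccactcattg
Rxrb, chr17:34031562-34031861, plus strand: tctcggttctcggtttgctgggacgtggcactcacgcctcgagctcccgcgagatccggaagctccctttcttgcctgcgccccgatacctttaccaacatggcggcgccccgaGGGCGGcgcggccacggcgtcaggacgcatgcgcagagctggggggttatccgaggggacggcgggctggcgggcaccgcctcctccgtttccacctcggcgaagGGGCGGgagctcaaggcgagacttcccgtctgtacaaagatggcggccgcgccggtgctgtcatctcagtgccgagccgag
Rxrg, chr1:167618015-167618314, plus strand: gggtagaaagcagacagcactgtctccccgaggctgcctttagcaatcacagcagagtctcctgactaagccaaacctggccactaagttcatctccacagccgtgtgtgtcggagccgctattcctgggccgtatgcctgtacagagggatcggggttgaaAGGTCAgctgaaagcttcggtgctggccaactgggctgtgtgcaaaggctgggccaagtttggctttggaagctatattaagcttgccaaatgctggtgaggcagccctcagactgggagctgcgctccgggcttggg
The upstream Rxra window held 4 GC boxes and no half-site, and the downstream one 2 half-sites, whose first bases lie 87 and 48 bases before the start, and no GC box. The Rxrb window shown held 2 GC boxes, and a further window at 34032100 held 4, with no half-site in either. Rxrg had a half-site 88 bases before the start in the window shown and neither motif in its other window. The counts do not tell which start was used in these tumours.

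Over the superfamily, 35 of the 38 receptors had a window, 54 windows in all. AGGTCA was found on either strand in 11 windows of 10 genes, and in 16.3% of all 32841 windows in the RefSeq table. Among receptors that fell it was in 3 of 16 windows, those of Rxra, Rxrg and Nr1h4, and among receptors that rose in 0 of 3. The E-box CACGTG, the site read by MYC and its partner MAX and by clock proteins, was found in 0 of 3 windows of receptors that rose, 0 of 16 windows of those that fell and 5 of 35 of the others (Esr2, Nr1i3, Rara and Thrb), and in 7.15% of all windows. The Rara windows with the E-box overlap, so the same site is counted in each of them. The GC box was in 25 of the 54 windows, against 35.7% of all windows, and these overlapping Rara windows share their GC boxes too. The longer core TAGGTCA of ROR and REV-ERB sites was in 0 windows of the receptors and in 2.61% of all windows. The cAMP response element TGACGTCA was in 1, of Nr6a1, and in 1.79% of all windows. AGGTCA lies within TAGGTCA, and the other motifs were counted separately. These matches are a description of letters only.

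Estrogen-related receptors activate mitochondrial and fatty acid oxidation genes together with PGC-1 coactivators. Esrrb, best known as a factor of embryonic stem cells, had 0 reads in MYC-PyMT replicate 1 and 1 in replicate 2, together 1 read, against 139 reads in Control-PyMT. In scaled counts this was 0 and 1.10 in MYC-PyMT, against 24.3 and 96.0 in Control-PyMT. Control-PyMT was 118-fold higher, with an exact 95% counting interval of 20.8 to 4685 that covers counting error only. Esrrb fell by 5.10 on the log2 scale (SE 0.72, limma adjusted p = 0.000382). With so few reads the fitted value moves with the pseudocount, from -5.77 at 0.5 to -3.30 at 5. Without Control-PyMT replicate 2 the log2 change was -4.13 and without Control-PyMT replicate 1 it was -6.06.

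Esrrg (chromosome 1, 187608791 to 188214885) had 331 and 160.4 scaled counts in MYC-PyMT and 785 and 857 in Control-PyMT. It fell by 1.83 on the log2 scale (SE 0.32, limma adjusted p = 0.00138). It lost the call without Control-PyMT replicate 1 (log2 change -1.89, limma adjusted p = 0.0614) or Control-PyMT replicate 2 (-1.76, 0.0737). Esrra, the most abundant of the ERR genes, had 1752 and 2510.0 scaled counts in MYC-PyMT and 1176 and 1604 in Control-PyMT. Its groups did not overlap, but the log2 change of 0.61 did not pass (SE 0.24, limma adjusted p = 0.0578), and it passed with DESeq2 (0.0389), with the replicate block (0.0355), with the transcript length trend removed (0.0445) and without MYC-PyMT replicate 1 (0.0230). Esrra made up 88.2% and 95.6% of the summed ERR level per kilobase in MYC-PyMT, against 67.3% and 70.4% in Control-PyMT.

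Among 10 genes known as ERR targets, 8 rose and 0 fell, at a median log2 change of 0.92. Of all genes tested, 23.3% rose and 24.6% fell. The gene lists here were chosen with earlier results of these data known, so their counts are a description only. Pdk4, the kinase that shuts pyruvate dehydrogenase, had 1020 and 749 scaled counts in MYC-PyMT and 56.1 and 70.5 in Control-PyMT, a log2 change of 3.78 (SE 0.28, limma adjusted p = 1.36e-05). Cycs, cytochrome c, rose by 1.63 and Idh3a, a subunit of isocitrate dehydrogenase, by 1.27. Cox5b, a subunit of respiratory complex IV, rose by 0.98. Acadm, of fatty acid oxidation, and Sdha, of respiratory complex II, stood at log2 changes of 0.38 and 0.28 and did not pass. Without MYC-PyMT replicate 1, 5 rose.

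ROR proteins activate and REV-ERB proteins repress genes with the same DNA element, including those of the circadian clock. Rora (chromosome 9, 68653786 to 69388246) had 740 and 585 scaled counts in MYC-PyMT, against 2293 and 1991 in Control-PyMT. All MYC-PyMT values lay below all Control-PyMT values, and Rora fell by 1.70 on the log2 scale (SE 0.21, limma adjusted p = 0.000178), with alternatives between -1.87 and -1.34. Rorb, a factor of retina and brain, was near the level filter, at 10.1 and 11.0 scaled counts in MYC-PyMT and 26.2 and 24.6 in Control-PyMT. Its fall of 1.20 (SE 0.44, limma adjusted p = 0.0471) lost its call in 9 of 14 alternatives, each library left out included.

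Per kilobase of exon, Rora stood at 56.6 and 44.7 scaled counts in MYC-PyMT, against 175 and 152 in Control-PyMT. Of 7 tested T and NK cell markers, 6 fell, where 24.6% of all genes tested did. Among those that fell, Cd3e, Cd3d, Cd3g, Cd8a and Cd2 passed the level filter through the Control-PyMT libraries alone. The 8 listed genes, none at 0 in all libraries, summed to 130 and 160.4 scaled counts in MYC-PyMT and 503 and 455 in Control-PyMT. Of these sums Lck, which did not pass the test, held 94.6 and 131 in MYC-PyMT and 179 and 153 in Control-PyMT. The part of T and NK cells in the Rora values was not tested.

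Nr1d1, the REV-ERB alpha gene (chromosome 11, 98767932 to 98775333), had 421 and 360.5 scaled counts in MYC-PyMT and 132 and 220.0 in Control-PyMT. It rose by 1.19 on the log2 scale (SE 0.30, limma adjusted p = 0.00906), the largest rise among the receptors, and the call ended without Control-PyMT replicate 1 (log2 change 0.82, limma adjusted p = 0.0727). Its paralog Nr1d2, REV-ERB beta, had 2877 and 3046 scaled counts in MYC-PyMT and 3427 and 2730 in Control-PyMT, with overlapping groups (log2 change -0.05, SE 0.19, limma adjusted p = 0.860). Per kilobase Nr1d2 was the more abundant in every library, and Nr1d1 made up 20.4% and 17.2% of the pair in MYC-PyMT, against 6.3% and 12.4% in Control-PyMT. Nr1d1 and Thra are neighbours on opposite strands, and their exons share 263 bases, 8.55% of those of Nr1d1. The sources used here do not say whether counting took strand into account, so the reads of such shared bases cannot be told apart.

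Of 15 clock genes, 6 fell and 2 rose, at a median log2 change of -0.59. Of all genes tested, 24.6% fell and 23.3% rose. This list too was chosen with earlier results of these data known. Hlf, a PAR-domain transcription factor of clock output, had 759 and 719 scaled counts in MYC-PyMT and 1866 and 2382 in Control-PyMT, and fell by 1.51 (SE 0.20, limma adjusted p = 0.000295). Its relative Tef fell by 1.19, and Npas2, a partner of Arntl in the activating complex, by 1.55, with both calls ending without either Control-PyMT library. Ciart, a repressor that is itself clock-controlled, rose by 1.51 (SE 0.32, limma adjusted p = 0.00353). Nfil3, a target of REV-ERB repression, and Per3 did not pass, at log2 changes of 0.62 and -0.78 (limma adjusted p = 0.0505 and 0.0557), though each did in some alternatives. Without Control-PyMT replicate 1 or Control-PyMT replicate 2, 1 clock gene fell, and without the variance trend 3 did. The sources used here do not give the hour of tissue collection.

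**Figure D3:**
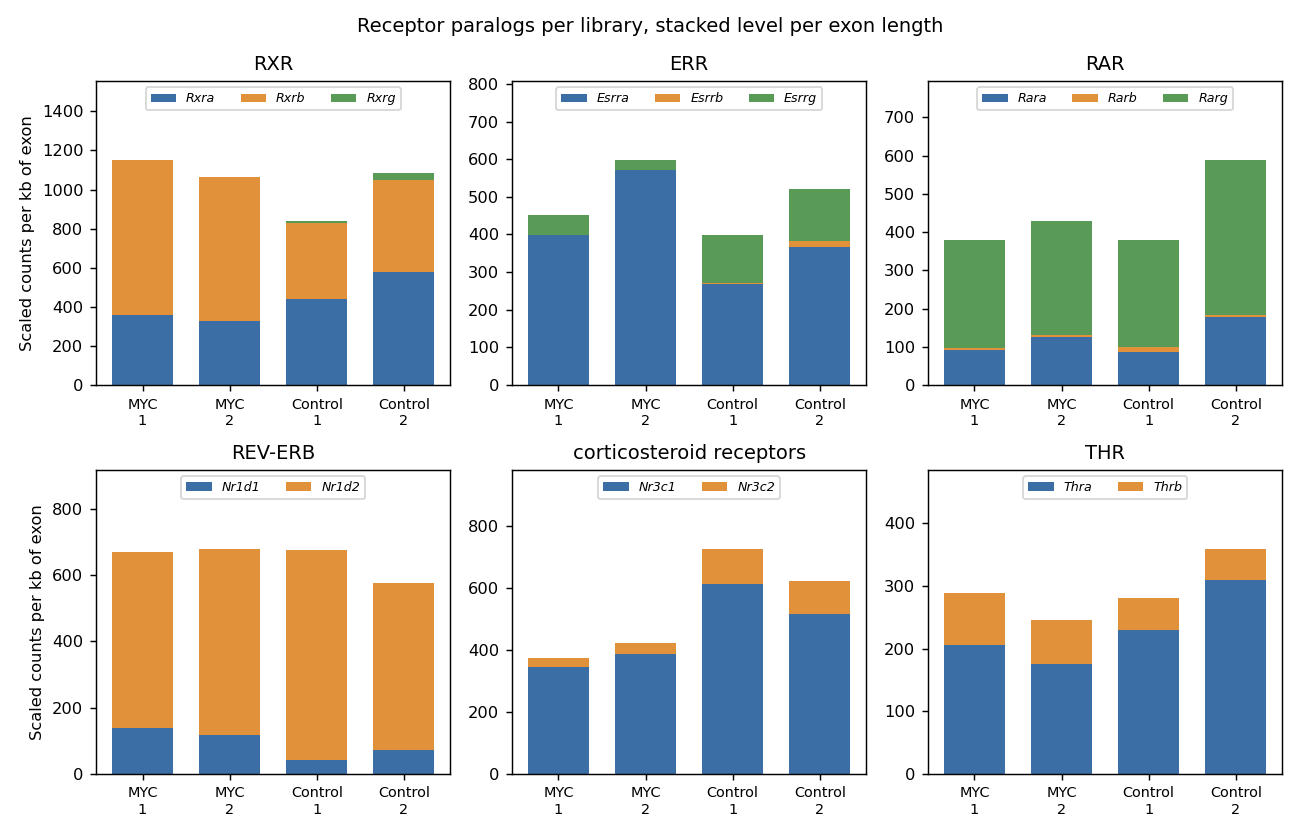
Stacked bars give the level of the paralogs of 6 receptor families in scaled counts per kb of exon for each library, MYC-PyMT left of Control-PyMT. Rxrb takes the larger part of the RXR bar in both MYC-PyMT libraries, Esrrg shrinks within ERR and Nr3c2 within the corticosteroid receptors.

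Both corticosteroid receptor genes fell. Nr3c2, the mineralocorticoid receptor that controls sodium transport (chromosome 8, 76899442 to 77245012), had 197 and 222 scaled counts in MYC-PyMT and 734 and 694 in Control-PyMT. Both MYC-PyMT libraries stood far below both Control-PyMT libraries, and Nr3c2 fell by 1.77 on the log2 scale (SE 0.23, limma adjusted p = 0.000240), with alternatives between -1.87 and -1.66. Nr3c1, the glucocorticoid receptor, had 2649 and 2978 scaled counts in MYC-PyMT, against 4724 and 3961 in Control-PyMT. It fell by 0.62 (SE 0.19, limma adjusted p = 0.0208), a call that ended in 5 of 15 alternatives: without any 1 of Control-PyMT replicate 1 (0.0790), MYC-PyMT replicate 1 (0.181) and MYC-PyMT replicate 2 (0.0736), without the variance trend (0.0704) and with the transcript length trend removed (0.0874).

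The genes of glucocorticoid and mineralocorticoid response split, with 4 of 15 higher and 6 lower, at a median log2 change of 0.10. Of all genes tested, 23.3% were called higher and 24.6% lower. The called genes of this list are named in full after their values were seen. Scnn1a, Sgk1, Cebpd, Zbtb16, Tsc22d3 and Errfi1 were lower, and Mt1, Mt2, Ddit4 and Hsd11b2 higher. Scnn1a, a subunit of the epithelial sodium channel, had 61.4 and 34.1 scaled counts in MYC-PyMT and 408 and 637 in Control-PyMT, and fell by 3.45 (SE 0.36, limma adjusted p = 7.87e-05). The metallothionein genes Mt1 and Mt2, which metals also induce, rose by 3.08 and 3.51. Ddit4, an inhibitor of mTORC1 that stress also induces, rose by 1.76, and lost the call without Control-PyMT replicate 2 (limma adjusted p = 0.0560). Fkbp5, a co-chaperone of the glucocorticoid receptor that its own ligand induces, had a log2 change of 0.43 that did not pass (limma adjusted p = 0.0758). Between 2 and 3 genes of the list fell when any 1 library was left out.

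Esr1 and Pgr, the estrogen receptor alpha and progesterone receptor genes, which the symbol rule did not take in, both fell, with log2 changes of -2.79 (SE 0.25, limma adjusted p = 3.33e-05) and -7.88 (SE 0.45, limma adjusted p = 3.94e-06). Esr2, the estrogen receptor beta gene and a member, was low, at 38.2 and 37.4 scaled counts in MYC-PyMT and 28.1 and 22.9 in Control-PyMT. Its groups did not overlap, and it did not pass (log2 change 0.56, SE 0.39, limma adjusted p = 0.264). Of 8 luminal epithelial markers 4 fell and 0 rose, and of 7 basal and myoepithelial markers 4 fell and 1 rose. Of all genes tested, 24.6% fell and 23.3% rose. The basal markers summed to 11384 and 25258 scaled counts in MYC-PyMT and 36947 and 36732 in Control-PyMT, none at 0 in all libraries, and the part of either compartment in the receptor values was not tested.

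None of the retinoic acid receptor genes passed the test. Rarg, the most abundant, had 1201 and 1265 scaled counts in MYC-PyMT and 1200 and 1724 in Control-PyMT (log2 change -0.22, SE 0.22). Rara had 403 and 549 scaled counts in MYC-PyMT and 378 and 773 in Control-PyMT (-0.20, SE 0.33). For both genes the groups overlapped. Rarb, itself a classic retinoic acid target, had 24.2 and 28.6 scaled counts in MYC-PyMT and 61.7 and 37.4 in Control-PyMT, with a log2 change of -0.85 that did not pass (SE 0.41, limma adjusted p = 0.115). Exons of Rarb share 34.1% of their bases with Top2b on the opposite strand, which had 6304 to 9370 scaled counts, so the Rarb values are uncertain. The Rarg share of the summed RAR level per kilobase was 74.4% and 69.3% in MYC-PyMT, against 74.1% and 68.7% in Control-PyMT.

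Of 16 tested genes that supply, bind or respond to retinoic acid, 10 fell and 0 rose, at a median log2 change of -0.93. Of all genes tested, 24.6% fell and 23.3% rose. The list was chosen with earlier results of these data known, so the count is a description only. Cyp26a1, among those that fell, passed the level filter through the Control-PyMT libraries alone. The supply genes Lrat and Aldh1a2, named after their values were seen, did not pass (log2 changes -0.25 and -0.24, limma adjusted p = 0.64 for each). Aldh1a3, an enzyme that makes retinoic acid from retinal, had 249 and 295 scaled counts in MYC-PyMT and 2129 and 1892 in Control-PyMT, and fell by 2.89 (SE 0.21, limma adjusted p = 1.34e-05). Aldh1a1, of the same enzyme family, fell by 2.29. Stra6, the receptor that takes up retinol, had 13.1 and 17.6 scaled counts in MYC-PyMT and 269 and 149 in Control-PyMT, a log2 change of -3.64 (SE 0.40, limma adjusted p = 9.89e-05). Rbp4, the retinol carrier of plasma, and Rarres2, the gene for chemerin, did not pass, at log2 changes of 1.39 and 0.83, though Rbp4 did in 4 alternatives: with the replicate block (limma adjusted p = 0.0099) and without any 1 of Control-PyMT replicate 2 (0.0247), MYC-PyMT replicate 1 (0.0492) and MYC-PyMT replicate 2 (0.0321). Rarres2 passed without Control-PyMT replicate 2 (0.0435). Without Control-PyMT replicate 1, 6 fell, and without Control-PyMT replicate 2, 2 rose.

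The vitamin D receptor gene Vdr was among the most abundant receptors, with 3612 and 3480 scaled counts in MYC-PyMT and 2494 and 3102 in Control-PyMT. The groups did not overlap, but the log2 change of 0.35 did not pass (SE 0.19, limma adjusted p = 0.153). Of 5 tested vitamin D genes, 3 rose and 1 fell, where 23.3% of all genes tested rose and 24.6% fell. Cyp24a1, the enzyme that breaks down active vitamin D and a target of Vdr, had 996 and 1175 scaled counts in MYC-PyMT and 149 and 155 in Control-PyMT, and rose by 2.83 on the log2 scale (SE 0.23, limma adjusted p = 2.13e-05). Cyp27b1, which makes the active hormone, was low, at 22.1 and 25.3 scaled counts in MYC-PyMT and 5.61 and 2.55 in Control-PyMT. It rose by 2.35 (SE 0.53, limma adjusted p = 0.00514). Cyp27b1 passed the level filter through the MYC-PyMT libraries alone, and Cyp2r1 through the Control-PyMT libraries alone. The calcium channel gene Trpv6 rose by 1.41, and lost the call without Control-PyMT replicate 2 (log2 change 0.91, limma adjusted p = 0.0990). Cyp2r1, which adds a hydroxyl group to vitamin D in the first step of its activation, had 5.03 and 6.59 scaled counts in MYC-PyMT and 23.4 and 13.6 in Control-PyMT and fell by 1.48, and it lost the call with DESeq2 (adjusted p = 0.244) and without Control-PyMT replicate 1 (limma adjusted p = 0.122) or MYC-PyMT replicate 1 (0.101). S100g, a calcium-binding protein, had 11.1 and 31.9 scaled counts in MYC-PyMT and 184 and 23.8 in Control-PyMT, and did not pass (log2 change -1.77, SE 0.82, limma adjusted p = 0.103), though it did in 5 alternatives, among them DESeq2 (adjusted p = 0.0131) and without Control-PyMT replicate 2 (limma adjusted p = 0.0472).

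PPAR proteins respond to fatty acids, and none of their genes passed the test. Pparg, the regulator of fat cell formation, had 122 and 104 scaled counts in MYC-PyMT and 61.7 and 70.5 in Control-PyMT. Its groups did not overlap, and it did not pass (log2 change 0.76, SE 0.32, limma adjusted p = 0.0707), except without the variance trend (0.0392). Ppard, found in most tissues, had 634 and 596 scaled counts in MYC-PyMT and 378 and 805 in Control-PyMT, so that both MYC-PyMT libraries lay between those of Control-PyMT. Ppara, the liver and heart form, was low, at 18.1 and 14.3 scaled counts in MYC-PyMT and 28.1 and 31.4 in Control-PyMT (log2 change -0.84, SE 0.42).

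Of 18 tested PPAR targets, 8 rose and 1 fell, at a median log2 change of 0.43, where 23.3% of all genes tested rose and 24.6% fell. In both directions together 9 were called, a share near the 47.9% of all genes tested. Besides Pdk4, Angptl4, an inhibitor of lipoprotein lipase, had 1739 and 1322 scaled counts in MYC-PyMT and 533 and 386 in Control-PyMT, and rose by 1.74 (SE 0.24, limma adjusted p = 0.000342). Fabp4, the fatty acid binding protein of fat cells and vessels, rose by 1.89, and Cpt1a, which admits fatty acids to mitochondria, by 1.11. Without Control-PyMT replicate 1 and without Control-PyMT replicate 2, 3 and 5 of the targets rose, and 5 without the variance trend. Cpt2 and Acadl, also of fatty acid oxidation, did not pass, at log2 changes of 0.48 and -0.57, though Acadl did in 8 alternatives. Of 7 adipocyte markers 1 rose and 1 fell, and the latter, Lep, passed the level filter through the Control-PyMT libraries alone. The sum of the 7, none at 0 in all libraries, was 5620 and 4849 scaled counts in MYC-PyMT and 1340.1 and 6004 in Control-PyMT. The part of fat cells in the Pparg and PPAR target values was not tested.

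LXR proteins sense oxysterols, and neither gene passed the test. Nr1h2, LXR beta, had 1473 and 2051 scaled counts in MYC-PyMT and 1584 and 2538 in Control-PyMT, with overlapping groups (log2 change -0.21, SE 0.26). Nr1h3, LXR alpha, had 168 and 187 scaled counts in MYC-PyMT and 210.4 and 247 in Control-PyMT (-0.36, SE 0.27, limma adjusted p = 0.285). Of 10 tested LXR targets, 4 fell and 1 rose, where 24.6% of all genes tested fell and 23.3% rose. In both directions together their share was also near the 47.9% of all genes called. Mylip, which marks the LDL receptor for breakdown, had 704 and 651 scaled counts in MYC-PyMT and 2879 and 2894 in Control-PyMT, and fell by 2.09 (SE 0.19, limma adjusted p = 3.36e-05). Scd1, a fatty acid desaturase, fell by 2.17 and Srebf1, a regulator of lipid synthesis, by 1.39. Lpl, lipoprotein lipase, rose by 1.88. The cholesterol exporter gene Abcg1 and the desaturase gene Scd2 did not pass, at log2 changes of -0.33 and -0.58, though Scd2 did in 5 alternatives.

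Nr1h4, the bile acid receptor FXR, had 19.1 and 40.7 scaled counts in MYC-PyMT and 137 and 98.5 in Control-PyMT. It fell by 2.01 on the log2 scale (SE 0.43, limma adjusted p = 0.00363), and lost the call without Control-PyMT replicate 1 (0.0899) or Control-PyMT replicate 2 (0.0597). The xenobiotic receptors were low. Nr1i2, PXR, had 59.4 and 28.6 scaled counts in MYC-PyMT and 29.9 and 31.4 in Control-PyMT, and Nr1i3, CAR, had 50.3 and 60.4 in MYC-PyMT and 36.5 and 35.7 in Control-PyMT. Neither passed, and exons of Nr1i3 share 74.9% of their bases with Tomm40l on the opposite strand, which had 434 to 630.0 scaled counts, so its values are uncertain. Of 9 liver and gut targets of these receptors, 2 were tested: Abcb1a, a drug exporter, fell by 1.12 (limma adjusted p = 0.0379), a call that ended with DESeq2 and in 4 further alternatives, and Abcb11, the bile salt pump, had a log2 change of -0.10. Cyp2b10 and Cyp2c55 of the same list, named after their values were seen, did not meet the level filter and were not tested. Cyp2b10 had 23.1 and 9.89 scaled counts in MYC-PyMT and 0 and 0 in Control-PyMT. Cyp2c55 had 4.03 and 6.59 scaled counts in MYC-PyMT and 0.94 and 1.70 in Control-PyMT. Of 5 hepatocyte markers 2 were in the table, with a sum of 16.1 and 13.2 scaled counts in MYC-PyMT and 0.94 and 7.64 in Control-PyMT.

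The thyroid hormone receptor genes leaned in opposite directions without passing the test. Thra had 947 and 807 scaled counts in MYC-PyMT and 1057 and 1426 in Control-PyMT (log2 change -0.49, SE 0.22, limma adjusted p = 0.0925), and passed with upper-quartile scaling (0.0491). Thrb had 616 and 524 scaled counts in MYC-PyMT and 380 and 376 in Control-PyMT (0.59, SE 0.22, limma adjusted p = 0.0530), and passed with the transcript length trend removed (0.0188) and with a level filter of 50 (0.0494). For each gene the groups did not overlap, and the Thrb share of the pair per kilobase was 28.8% in both MYC-PyMT libraries, against 18.3% and 14.1% in Control-PyMT. Of 8 tested thyroid hormone genes, 3 fell and 1 rose, where 24.6% of all genes tested fell and 23.3% rose. Crym, which binds the hormone in the cell, had 1.01 and 0 scaled counts in MYC-PyMT and 76.7 and 39.9 in Control-PyMT. It passed the level filter through the Control-PyMT libraries alone. Dio2, which activates the hormone, had 33.2 and 40.7 scaled counts in MYC-PyMT and 234 and 149 in Control-PyMT, and fell by 2.31 (SE 0.35, limma adjusted p = 0.000576). Slc16a10, the gene of a thyroid hormone transporter, rose by 0.74 (limma adjusted p = 0.0443), a call that ended in 8 alternatives. Thrsp and Hr, both known to respond to the hormone, did not pass, at log2 changes of -0.27 and 0.41.

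NR4A receptors are immediate early genes that need no ligand, and none passed the test. Nr4a1 had 1437 and 806 scaled counts in MYC-PyMT and 696 and 1159 in Control-PyMT, and the libraries of each group lay further apart than the group means. Nr4a2 had 451 and 345 scaled counts in MYC-PyMT and 301 and 302 in Control-PyMT (log2 change 0.39, SE 0.25). Nr4a3 had 19.1 and 9.89 scaled counts in MYC-PyMT and 40.2 and 28.9 in Control-PyMT, with a log2 change of -1.25 that did not pass (SE 0.47, limma adjusted p = 0.0523) and passed in 5 of 14 alternatives. Of 10 other immediate early genes, 2 rose and 1 fell, where 23.3% of all genes tested rose and 24.6% fell. Btg2 and Atf3 rose by 0.60 and 0.70, each losing the call in 6 alternatives, and 0 of the 10 rose when either one of the Control-PyMT libraries was left out, and Egr3 fell by 1.68, and lost the call without Control-PyMT replicate 2 (limma adjusted p = 0.140). Fos and Ier2 did not pass, at log2 changes of -0.51 and 0.53.

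Among the orphan receptors, Nr2c2, testicular receptor TR4, had 720 and 647 scaled counts in MYC-PyMT and 1222 and 1049 in Control-PyMT. It fell by 0.73 on the log2 scale (SE 0.20, limma adjusted p = 0.0148), a call that ended with the transcript length trend removed (log2 change -0.33, limma adjusted p = 0.211) and without Control-PyMT replicate 1 (0.0711) or MYC-PyMT replicate 2 (0.121). Its exons share 30.7% of their bases with Mrps25 on the opposite strand, which rose by 1.04. Nr2c1, TR2, had 868 and 662 scaled counts in MYC-PyMT and 966 and 871 in Control-PyMT and did not pass (-0.28, SE 0.22). Nr2c2ap, whose product represses TR4, had 638 and 849 scaled counts in MYC-PyMT and 384 and 289 in Control-PyMT. It rose by 1.14 (SE 0.25, limma adjusted p = 0.00452), and the call ended without Control-PyMT replicate 2 (0.0675). Of its exon bases, 82.4% overlap Rfxank on the opposite strand, which had 701 to 955 scaled counts and did not pass (log2 change -0.29), so the Nr2c2ap values are uncertain.

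The COUP receptors did not pass. Nr2f6, the most abundant, had 730 and 937 scaled counts in MYC-PyMT and 584 and 753 in Control-PyMT, and 54.4% of its exon bases overlap Ocel1 on the opposite strand, which leaves its values uncertain. Nr2f2, a regulator of venous identity, had 424 and 342 scaled counts in MYC-PyMT and 295 and 268 in Control-PyMT (log2 change 0.44, SE 0.24, limma adjusted p = 0.167), and passed with the length trend removed (0.0455). Of 6 endothelial markers 3 rose, where 23.3% of all genes tested did. The markers summed to 3428 and 3999 scaled counts in MYC-PyMT and 2057 and 2703 in Control-PyMT, none at 0 in all libraries. Their part in the Nr2f2 values was not tested. Nr2f1 stood at 6.55 to 13.6 scaled counts in the libraries of both groups. Nr6a1, germ cell nuclear factor, had 335 and 370.3 scaled counts in MYC-PyMT and 443 and 438 in Control-PyMT (-0.32, SE 0.23), Nr6a1os at most 6.79 in any library, under the level filter, and Nr5a2, LRH-1, 6.04 and 5.49 in MYC-PyMT and 12.2 and 10.2 in Control-PyMT.

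Coregulators carry the signal of the receptors to chromatin. Where 47.9% of all genes tested were called, 2 of 22 coregulators were higher and 2 lower. The other 18 did not pass, and the median log2 change was 0.04. Those that rose were Ppargc1b and Pprc1 of the PGC-1 family, whose member Ppargc1a, named after its values were seen, overlapped between groups and did not pass (log2 change 0.17, limma adjusted p = 0.739). Ppargc1b, PGC-1 beta, had 220.4 and 212 scaled counts in MYC-PyMT and 26.2 and 62.0 in Control-PyMT, and rose by 2.39 (SE 0.41, limma adjusted p = 0.00115). Pprc1 had 2968 and 2464 scaled counts in MYC-PyMT and 701 and 1150.0 in Control-PyMT, and rose by 1.59 (SE 0.25, limma adjusted p = 0.000729). The coactivator gene Ncoa1 fell by 0.68 and the corepressor gene Ncor1 by 0.51, and both calls ended without the variance trend, with the length trend removed, and with any one of several libraries left out, each Control-PyMT library included. Without Control-PyMT replicate 2, 4 coregulators rose and 0 fell. The methyltransferase gene Carm1 and the corepressor gene Nrip1 did not pass, at log2 changes of 0.52 and -0.42.

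**Figure D4:**
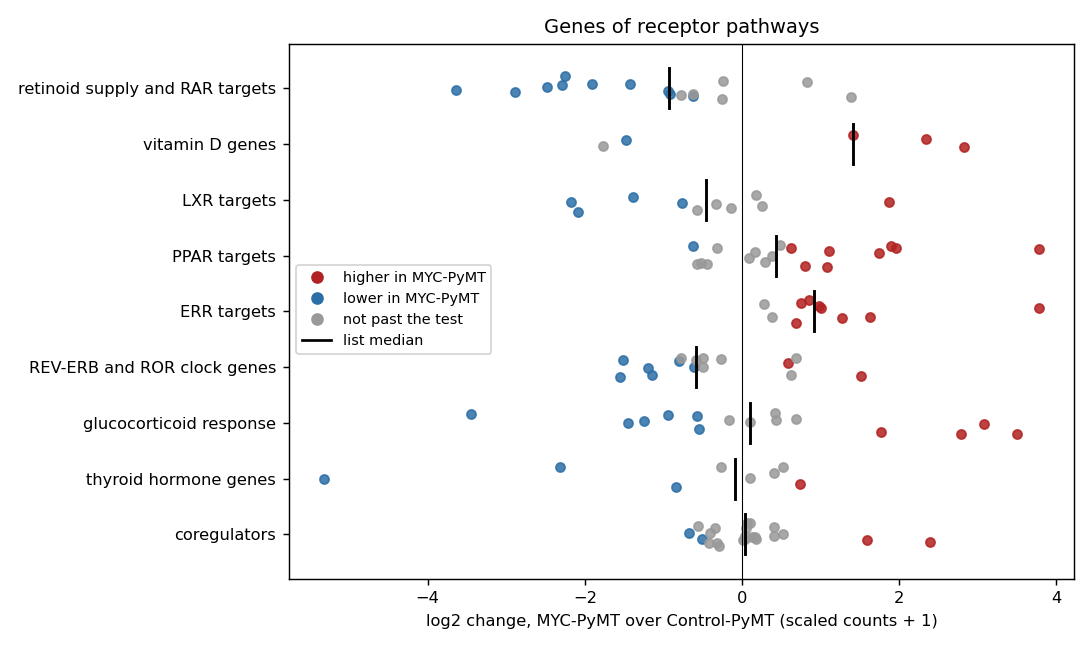
Points give the log2 change, MYC-PyMT over Control-PyMT, of each tested gene of 9 receptor-related lists, coloured by the test, with a black line at the list median. The retinoid list has 10 lower and 0 higher genes, the ERR target list 8 higher and 0 lower, and the coregulators cluster near 0 apart from Ppargc1b and Pprc1.

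By level per kilobase of exon, the order of the receptors differed between groups. The order also depends on the length used. Exons of Esrra cover 4387 bases and its longest transcript 2489, against 5650 and 4370 for Vdr. In MYC-PyMT the mean was highest for Rxrb, at 764 scaled counts per kilobase, then for Vdr at 628, Nr1d2 at 548, Nr1h2 at 525 and Esrra at 486. In Control-PyMT, Nr1h2 at 615 was followed by Nr1d2 at 569, Nr3c1 at 565, Rxra at 508, Vdr at 495 and Rxrb at 433. In MYC-PyMT, Rxrb at 792 and 737 stood above Vdr in both libraries, whereas Nr1h2, at 439 and 611, spanned both values of Nr1d2. In Control-PyMT, Nr1h2 at 472 and 757 spanned the means of Nr1d2, Nr3c1, Rxra and Vdr. Rora ranked 20 of 38 in MYC-PyMT and 14 in Control-PyMT, and Esrrg 23 and 15. Summed over the 38 genes, the level was 6355 and 6255 per kilobase in MYC-PyMT and 6172 and 7212 in Control-PyMT, which overlap.

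Skeletal muscle markers, given because Esrrg and Rxrg are also made in muscle, summed to 745 and 1975 scaled counts in MYC-PyMT and 153 and 990.4 in Control-PyMT over 5 genes, none at 0 in all libraries, with 2 higher and 0 lower. The sums overlapped between groups. Control-PyMT replicate 2 was above replicate 1 in the sum and in both receptors, while MYC-PyMT replicate 2 was above replicate 1 in the sum and below it in both receptors. Neutrophil markers rose in 4 of 7 cases and summed to 2764 and 3974 in MYC-PyMT and 3164 and 1035 in Control-PyMT. Among those that rose, Retnlg, Ngp and Camp passed the level filter through the MYC-PyMT libraries alone. Of 8 macrophage markers, 3 fell and 1 rose, and the sum was 13429 and 15541 in MYC-PyMT and 13492 and 15386 in Control-PyMT. Of 7 fibroblast markers, 2 fell and 2 rose, and the sum was 17860 and 23443 in MYC-PyMT and 15196 and 24450 in Control-PyMT. Over all genes tested, 24.6% fell and 23.3% rose. The part of these cell types in the receptor values was not tested.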

How the data were processed

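Poly(A)-selected, stranded TruSeq libraries were made from tumour RNA with integrity numbers of 3.3 to 9.6, which the labels do not tie to samples. The submitters' processing notes name HISAT2, DESeq2 and the builds mm10 and GRCm38.p5. The sources used here give no read counter and no strand setting. The authors deposited counts scaled by library, a signal with no correction for length. All values (100%) were whole multiples of the worth of 1 read in their library, within 0.001 reads, so whole reads were recovered. Totals are given with the results, and intervals cover counting error only.

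Members were taken by symbol. The members and gene lists were chosen with earlier results of these data known. The test was limma 3.58.1 (variance trend, two-sided) on log2(scaled count + 1) over 16725 genes with at least 10 in at least 2 libraries. The p-values were Benjamini-Hochberg adjusted over all of them. The fit was also run on simulated counts in which few genes changed and all had the same relative spread. That setting differs from these data, so it does not give the error rates here. An exact test of 2 against 2 libraries could not reach 0.05. Exon lengths and overlaps came from GENCODE mouse release 21 (92 genes of the table had no match), promoters from RefSeq GRCm38.p6. Alternatives were 2 pseudocounts, 2 level filters, 2 scalings, no variance trend, the replicate block, each library left out, edgeR 4.0.16 quasi-likelihood and DESeq2 1.42.0 on the recovered reads, and removal of each library's trend with exon length (lowess, span 0.3). Named genes were the 38 receptors and 2 other rows, and of 12 pathway lists the 4 genes past the test and 2 others with the smallest p; some of these genes are not reported here.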

Additional observations from a re-analysis of the deposited data

How the results depend on the processing

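With 2 libraries a group, small changes cannot be resolved: the receptors that did not pass had a median SE of 0.26 on the log2 scale. Receptors called were 2 higher and 10 lower in MYC-PyMT, and counts stayed within 1.5 times of these except with the transcript length trend removed, which gave 5 higher and 6 lower, and when a library was left out, which gave 1 to 3 higher and 5 to 9 lower. The lowest lower count, 5, came without Control-PyMT replicate 1 and again without Control-PyMT replicate 2. Over all genes, leaving out a library gave 2663 to 3071 higher and 2573 to 3433 lower genes, against 3892 and 4118. Over the 12 pathway lists it gave 23 to 27 higher and 20 to 30 lower genes, against 30 and 38. With the longest transcript as length, Rxrb made up 75.2% of the RXR level in MYC-PyMT (69.0% with all exons) and 52.9% in Control-PyMT (45.2%). The causes were not tested. Upper-quartile scaling shifted the median log2 change of all genes by -0.10, and the receptors then gave 2 higher and 13 lower calls.

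Libraries left out in turn reversed the sign of log2 changes that did not pass. These ran from -0.48 to 0.0385 for Rarg, -0.72 to 0.32 for Rara, -0.39 to 0.70 for Ppard, -0.21 to 0.12 for Nr1d2, -0.10 to 0.93 for Nr1i2, -0.16 to 0.68 for Nr4a1, -0.55 to 0.13 for Nr1h2, -0.55 to 0.40 for Nr2f1 and -0.41 to 0.21 for Abcb11. With the length trend removed Nr1d2 stood at 0.0288. Same-numbered libraries of the groups did not deviate together (correlation of replicate differences across genes -0.09), and the numbers are not stated to pair samples. With the replicate block, 3 receptors were higher and 9 lower, and 3887 and 4152 of all genes. edgeR called 2 receptors higher and 10 lower, and DESeq2 3 and 9.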
